A study of Homo sapiens with 3 samples.

Results

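The canonical histone genes encode the core histones H2A, H2B, H3 and H4 and the linker histone H1. They were taken as every gene whose current symbol in the platform annotation starts with H1-, H2AC, H2BC, H3C or H4C followed by a number. The symbols alone fix the members, but the family was singled out after its differences between these arrays had been seen, so its values describe it and support nothing beyond that. This gave 50 of the 19775 genes on the array, read by 58 probe sets with 1 gene symbol each. Of the 50, 46 are protein-coding, H1-9P, H2AC5P and H4C10P are pseudogenes, and H1-10-AS1 is an antisense RNA. A further 20 probe sets list several histone genes at once and are described separately, because none of them can be assigned to 1 gene.

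All 3 arrays read stable derivatives of PANC-1, a cell line from a human ductal pancreas cancer. In 1 of them wild-type JMJD3 was expressed, in 1 a mutant JMJD3, and the control held the MSCV vector without insert; the labels give no drug or time point. JMJD3, the protein of KDM6B, is a demethylase of histone H3. Each line was hybridised once to an Affymetrix 3' expression array, which leaves every difference without a replicate check or a test and makes the array number the limit on precision. The labels do not name the mutation or the promoter driving JMJD3, nor say whether a line is a clone or a pool.

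Histones package DNA into nucleosomes, in which the core histones form the spool and linker histones bind where DNA enters and leaves. Most canonical genes lie in clusters, lack introns and are transcribed in S phase, when new DNA needs packaging. Their messages usually end in a stem-loop instead of a poly(A) tail, although several of the genes are known to make polyadenylated messages as well. Standard Affymetrix labelling of this kind starts from oligo(dT), so such arrays read mainly polyadenylated RNA. Paralogs within a family are nearly identical in their coding sequence, and a probe set can therefore take up signal from its neighbours.

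Signals are given as deposited, on a log2 scale. With no detection calls at hand, the median over all values, log2 5.48, served as a floor. A comparison includes a gene if either array exceeds the floor, and differences are taken between floored log2 signals. A fold with one side under the floor is given as at least that size. The probe set with the highest mean signal stood for its gene. Higher and lower are counted from a 2-fold difference, which is 1 on the log2 scale. In these bulk samples, more cells with the histone RNA that is read and more of that RNA per cell cannot be told apart. Since such arrays read mainly polyadenylated RNA, total histone RNA was not measured.

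The whole arrays had close distributions, with median log2 signals of 5.48 for wild-type JMJD3, 5.49 for mutant JMJD3 and 5.50 for control. Identical signals in every array occurred in 5 of the 58 histone probe sets and in 11475 of all 54613 probe sets, so a difference of 0 does not show equal RNA levels. Among the markers, KRT7, KRT8, KRT18, KRT19, EPCAM and the mesenchymal filament gene VIM were over the floor in every array, and CDH1 lay under it in every array. The immune genes PTPRC and CD3E, the endothelial gene CDH5, the acinar gene CPA1 and the islet genes INS and GCG were under the floor in every array, whereas PECAM1 read 6.28 with wild-type JMJD3, 6.27 with mutant JMJD3 and 6.28 in control. HBB, a globin gene, read 10.71 with wild-type JMJD3, 7.23 with mutant JMJD3 and 7.53 in control, while the erythroid gene ALAS2 was under the floor throughout. KDM6B probe set 1556067_a_at read 6.73 with wild-type JMJD3, 6.45 with mutant JMJD3 and 5.53 in control, and its probe set of highest signal, 41387_r_at, read 7.66, 7.65 and 7.60 in the same order. No source used here places them relative to the JMJD3 insert.

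The promoters below are shown because their genes carry the contrast between lines. H2BC4, H2BC21, H2AC17 and H1-2 were 2-fold or more higher in the mutant array than in control, and H2BC12 holds the same motif at the same place as H2BC21 with a smaller difference. They are RefSeq sequences of build GRCh38.p14, cover the 250 bases before each gene start, and all lie on the minus strand. H2BC4 covers chr6:26123927-26124176, H2BC21 chr1:149886683-149886932, H2BC12 chr6:27146859-27147108, H2AC17 chr6:27893186-27893435 and H1-2 chr6:26056471-26056720. Capitals mark the octamer ATTTGCAT, a known binding site of Oct-1 in H2B genes, or in H1-2 the H1 box AAACACA and its reverse complement.
H2BC4: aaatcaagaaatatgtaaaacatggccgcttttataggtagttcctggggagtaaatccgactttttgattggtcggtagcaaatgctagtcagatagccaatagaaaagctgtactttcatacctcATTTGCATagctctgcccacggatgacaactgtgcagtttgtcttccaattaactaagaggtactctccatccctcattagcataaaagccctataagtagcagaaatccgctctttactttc
H2BC21: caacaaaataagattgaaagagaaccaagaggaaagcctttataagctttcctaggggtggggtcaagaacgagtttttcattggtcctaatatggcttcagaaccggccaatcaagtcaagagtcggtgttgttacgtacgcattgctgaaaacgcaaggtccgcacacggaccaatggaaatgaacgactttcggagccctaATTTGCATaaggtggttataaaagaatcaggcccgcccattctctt
H2BC12: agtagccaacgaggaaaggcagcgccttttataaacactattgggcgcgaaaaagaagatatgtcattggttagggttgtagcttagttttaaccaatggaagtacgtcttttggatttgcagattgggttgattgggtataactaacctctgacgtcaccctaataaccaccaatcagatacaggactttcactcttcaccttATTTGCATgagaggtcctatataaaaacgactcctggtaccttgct
H2AC17: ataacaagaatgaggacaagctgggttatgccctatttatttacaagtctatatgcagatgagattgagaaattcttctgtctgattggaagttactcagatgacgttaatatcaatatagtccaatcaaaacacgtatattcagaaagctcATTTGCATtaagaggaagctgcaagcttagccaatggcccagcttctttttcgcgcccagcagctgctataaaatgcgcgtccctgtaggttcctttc
H1-2: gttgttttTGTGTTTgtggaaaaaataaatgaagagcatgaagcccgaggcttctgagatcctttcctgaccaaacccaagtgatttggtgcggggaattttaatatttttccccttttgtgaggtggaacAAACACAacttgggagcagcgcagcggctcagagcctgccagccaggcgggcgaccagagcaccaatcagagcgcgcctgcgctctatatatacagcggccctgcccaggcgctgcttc

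Most histone genes that could be measured had their highest signal in the mutant JMJD3 array. Of the 31 members over the floor in at least 1 array, 27 had their highest signal in the mutant JMJD3 array, 4 had a tie for the highest, and none was highest with wild-type JMJD3 or in control. Over the 12867 genes so measured on the whole array, 30.4% were highest with mutant JMJD3, 41.9% with wild-type JMJD3 and 14.4% in control. H2BC3, H2BC11 and H3C3 are among the 31 only through the mutant array. Of the 27 members over the floor in control, 23 were highest with mutant JMJD3, as were 29.7% of all genes over the floor there. The share of all genes over the floor was 63.6% with wild-type JMJD3, 63.3% with mutant JMJD3 and 62.9% in control, where 27, 31 and 27 members were over it. The median signal of these 31 was log2 6.52 with wild-type JMJD3, 7.04 with mutant JMJD3 and 6.56 in control. The plot of signals by gene shows this as squares to the right of circles and triangles that lie close together.

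**Figure D1:**
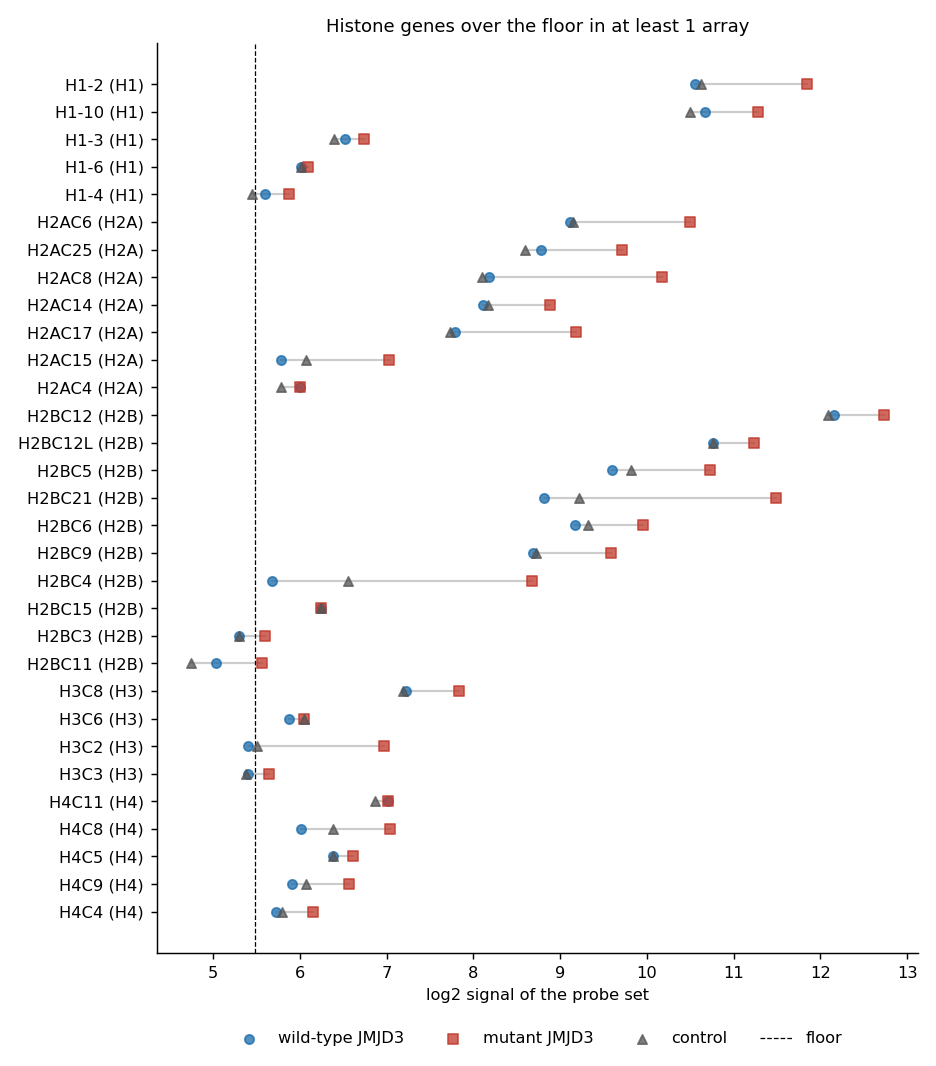
Log2 signal (x axis) of the 31 histone genes over the floor in at least 1 array (y axis, grouped by family), with circles for wild-type JMJD3, squares for mutant JMJD3, triangles for control and a dashed line at the floor of 5.48. There is 1 array per line and no error bar. The squares lie to the right of both other symbols for 27 genes.

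The comparison of mutant JMJD3 with control sets the line with mutant JMJD3 beside the vector control. With 1 array per line, an effect of the protein and a difference between the lines cannot be told apart. Of 31 measured members, 29 were above control, 2 were equal and none was below, around a median difference of 0.64. Over all 12707 measured genes 45.9% were above control and the median was 0.00. By 2-fold or more 8 members were higher and none lower, while 2.98% of all measured genes were higher and 0.535% lower. From 1.5-fold, 17 members were higher, as were 9.51% of all genes. The members H1-4, H2BC3, H2BC11 and H3C3 were measured only through the mutant array, and none of them reached 2-fold. Among the 27 members over the floor in control, 25 were above it, 8 of them by 2-fold, with a median of 0.66, and of the 12438 genes over the floor in control 44.7% were above it and 2.62% by 2-fold.

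The H2B genes held the largest differences. H2BC21, an H2B gene outside the main cluster, read log2 8.82 with wild-type JMJD3, 11.49 with mutant JMJD3 and 9.22 in control. The mutant array exceeded control 4.82-fold, and the wild-type array was 1.32-fold below it. H2BC4, a gene of the main cluster, read 5.68 with wild-type JMJD3, 8.68 with mutant JMJD3 and 6.56 in control. Mutant JMJD3 exceeded control 4.35-fold, and wild-type JMJD3 was 1.84-fold lower than control, the only member with a difference of 1.5-fold or more there, which 9.08% of all measured genes had in that direction. That wild-type signal lies just over the floor, and the log2 difference of -0.88 became -0.39 once the floor was raised to the 60th percentile and -0.54 with an offset in place of a floor, both under 1.5-fold. In both genes the wild-type array was the lowest, the control array next and the mutant array the highest. Their octamers lie at different places, starting 46 bases before the gene start in H2BC21 and 123 bases before it in H2BC4.

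The other H2B genes went the same way by less. H2BC5 read 9.60 with wild-type JMJD3, 10.73 with mutant JMJD3 and 9.82 in control, a 1.88-fold difference between mutant and control. Its other probe set, 222067_x_at, read 9.46, 10.70 and 9.53 in the same order, a log2 difference of 1.17 between mutant JMJD3 and control. The H2B genes H2BC9 (1.83-fold), H2BC6 (1.56-fold), H2BC12 (1.56-fold) and H2BC12L (1.39-fold) were also above control with mutant JMJD3. H2BC12 read 12.16 with wild-type JMJD3, 12.73 with mutant JMJD3 and 12.09 in control, and H2BC12L read 10.76, 11.23 and 10.76. H2BC15 read 6.25 in all 3 arrays. H2BC3 and H2BC11 were over the floor with mutant JMJD3 alone, by 0.12 and 0.09. Over the 10 measured H2B genes the median difference between mutant JMJD3 and control was 0.64. Over those with probe sets not shared with other transcripts, H2BC3, H2BC4, H2BC11, H2BC12 and H2BC15, it was 0.12. That median is the value of H2BC3, which the floor limits.

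H2A genes had the highest family median, 1.11 for mutant JMJD3 against control, with all 7 measured members above control and 4 of them by 2-fold. H2AC8 read 8.18 with wild-type JMJD3, 10.17 with mutant JMJD3 and 8.10 in control, so that mutant JMJD3 exceeded control 4.20-fold. H2AC17 read 7.79 with wild-type JMJD3, 9.18 with mutant JMJD3 and 7.73 in control, a 2.73-fold difference between mutant and control. H2AC6 read 9.11, 10.50 and 9.15 in the same order, 2.55-fold higher in the mutant array than in control. In each of these genes the wild-type and control arrays lay within 0.08 of each other. H2AC25 read 8.78 with wild-type JMJD3, 9.71 with mutant JMJD3 and 8.60 in control (2.16-fold), but its shared probe set 231681_x_at differed by only 0.24 between mutant JMJD3 and control, and over both the difference was 0.68. H2AC15 was 1.95-fold higher in the mutant array than in control through probe set 239041_at, with 5.78 for wild-type JMJD3, 7.03 for mutant JMJD3 and 6.07 for control, while its other probe set stayed under the floor. H2AC14 was 1.64-fold higher and H2AC4 1.16-fold.

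Of the linker histones H1-2, a main somatic H1, stood apart. It read 10.55 with wild-type JMJD3, 11.85 with mutant JMJD3 and 10.62 in control, 2.35-fold higher with the mutant than in control. H1-10, a linker histone made outside S phase as well, read 10.67 with wild-type JMJD3, 11.28 with mutant JMJD3 and 10.50 in control, a 1.72-fold difference between mutant and control. The other measured linker genes were nearer to control, with H1-4 at least 1.32-fold higher, H1-3 1.27-fold higher and the testis linker gene H1-6 1.06-fold higher. The median over the 5 measured H1 genes was 0.40.

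Read by probe sets with 1 gene symbol, the H3 and H4 genes were mostly dim. Some probe sets that list several of these genes were brighter and are described below. H3C2 read 5.40 with wild-type JMJD3, 6.97 with mutant JMJD3 and 5.51 in control, where the wild-type value is under the floor and the control value just over it. The mutant array exceeded control 2.75-fold, but by 0.80 on the log2 scale with the floor at the 60th percentile. H3C8 was 1.56-fold higher with the mutant, H3C3 was over the floor with the mutant alone by 0.17, and H3C6 differed by 0.00, while its other probe set, 214616_at, differed by -0.31. Of the H4 genes H4C8 read 6.01 with wild-type JMJD3, 7.04 with mutant JMJD3 and 6.38 in control, 1.58-fold higher with the mutant than in control, and its second probe set, 208180_s_at, differed by 0.63. H4C9 (1.41-fold), H4C4 (1.28-fold), H4C5 (1.17-fold) and H4C11 (1.11-fold) followed, so that no H4 gene reached 2-fold against control around a median of 0.36.

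The 19 members never over the floor included 15 protein-coding genes, the 3 pseudogenes and the antisense RNA. Among them were H2BC1, a testis H2B gene, H1-8, an oocyte linker histone, and H1-7, a spermatid one. No difference is given for any of the 19. By family they were 6 of the 11 H1 members, 2 of 9 H2A, 4 of 14 H2B, 3 of 7 H3 and 4 of 9 H4.

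**Figure D2:**
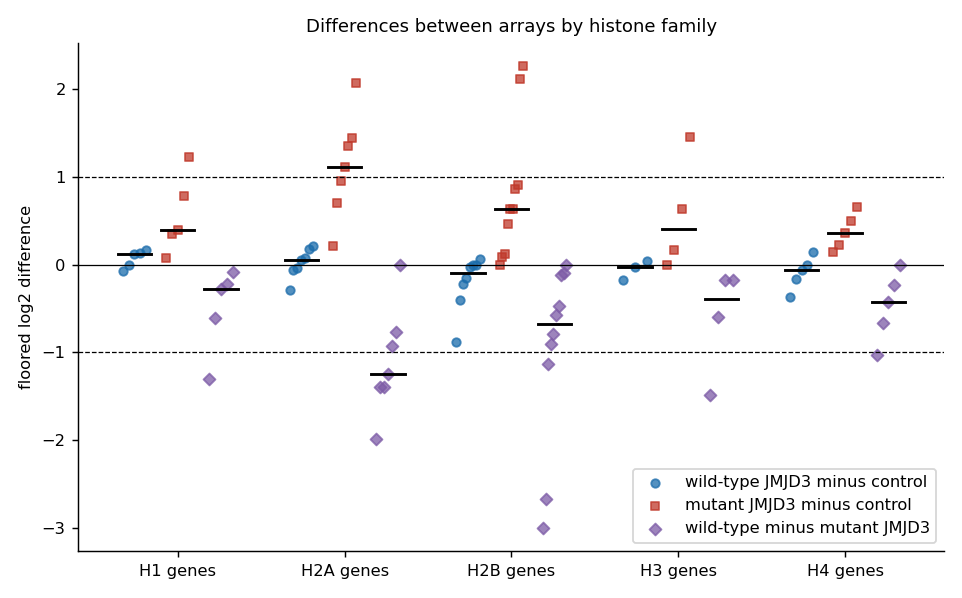
Floored log2 differences (y axis) of the measured members by histone family (x axis), with circles for wild-type JMJD3 minus control, squares for mutant JMJD3 minus control, diamonds for wild-type minus mutant JMJD3, black bars at the medians and dashed lines at 2-fold. The H2A median reaches 1.11 for mutant JMJD3 minus control, and the circles lie between -0.88 and 0.22.

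Wild-type JMJD3 against control gave small differences in both directions. Of 28 measured members 10 were above control, 14 below and 4 equal, from -0.88 to 0.22 around a median of -0.01. Over all 12697 measured genes 54.4% were above control and 34.2% below, and the median was 0.05. By 2-fold 0 members were higher and 0 lower, against 0.953% and 1.31% of all measured genes. After H2BC4 and H2BC21 the lowest members were H4C8, 1.29-fold lower than control, H2AC15, 1.22-fold lower, and H2BC5, 1.16-fold lower. The highest were H2AC4, 1.16-fold above control, H2AC25, 1.13-fold, and H1-10, 1.13-fold. H2B genes had 5 of 8 measured members below control and a median of -0.09, whereas H1 genes had a median of 0.12 and H2A genes of 0.06.

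The direct comparison of the JMJD3 arrays sets the line with wild-type JMJD3 beside the line with mutant JMJD3. Of 31 measured members 28 were lower in the wild-type than in the mutant array, 3 were equal and 0 higher, with a median of -0.61, against 40.5% of all 12829 measured genes lower and a median of 0.00. By 2-fold 10 were lower and 0 higher, where 6.20% of all genes were lower and 2.61% higher, and at 1.5-fold 17 members were lower, against 15.9% of all genes. H2BC3, H2BC11, H3C2 and H3C3 were measured here only through the mutant array. Among the 27 members over the floor with wild-type JMJD3, 24 were lower than with mutant JMJD3 and 9 by 2-fold, with a median of -0.66, where 39.3% of all genes over the floor there were lower and 5.79% by 2-fold. H2BC4 was 8.00-fold lower with wild-type JMJD3, H2BC21 6.36-fold, H2AC8 3.97-fold, H2AC6 and H2AC17 2.62-fold each, H1-2 2.46-fold, H2AC15 2.38-fold and H2BC5 2.19-fold. H3C2 was at least 2.81-fold lower, since its wild-type signal was under the floor. H4C8 was 2.04-fold lower but kept 2-fold in only 3 of 7 alternatives, with a log2 difference down to -0.69 with the offset. H2AC4, H2BC15 and H4C11 were equal in both JMJD3 arrays. This comparison and that of mutant JMJD3 with control share the mutant array, so they are not independent of each other.

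Just under 2-fold in this comparison were H2AC25 (1.91-fold lower with wild-type JMJD3) and H2BC9 (1.87-fold). They were followed by H2BC6 (1.73-fold), H2AC14 (1.71-fold), H4C9 (1.58-fold), H1-10 (1.53-fold), H3C8 (1.52-fold) and H2BC12 (1.48-fold). These genes stood above H2BC12L (1.39-fold), H4C4 (1.34-fold) and the dim genes. Members read by unshared probe sets (identifiers not ending in _s_at or _x_at) ranged further than the others. Over the 20 of them the difference between wild-type and mutant JMJD3 ran from -3.00 to 0.00 with a median of -0.35, and over the 11 with shared probe sets from -2.67 to 0.00 with a median of -0.79. For mutant JMJD3 against control 5 of the 8 genes at 2-fold rested on unshared probe sets, namely H1-2, H2AC8, H2AC17, H2AC25 and H2BC4.

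Most measured probe sets that list several histone genes were also above control in the mutant array, and the only one below was an H4 set. All 20 list only genes of the families above, and 16 were measured for mutant JMJD3 against control. Of those, 15 were above control and 10 by 2-fold or more, with a median of 1.23, while 2.96% of the 28127 probe sets measured on the array were 2-fold higher and 0.736% lower. For wild-type JMJD3 against control 4 of 15 were above control, 11 below and none 2-fold apart, with a median of -0.24, where 0.667% of all measured probe sets were 2-fold higher and 2.06% lower. Between the JMJD3 arrays 10 of 16 were 2-fold lower with wild-type, against 6.43% of all measured probe sets, and none higher, against 2.38%. H2B probe set 210387_at read 7.64 with wild-type JMJD3, 10.68 with mutant JMJD3 and 8.37 in control, so that wild-type was 8.22-fold lower than mutant. H3 probe set 206110_at, which lists 10 genes, read 6.43, 9.20 and 6.82 in the same order, and mutant JMJD3 exceeded control 5.21-fold. The other H3 set that lists 10 genes, 214646_at, read 4.52, 5.10 and 4.52 in that order, under the floor in every array.

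Among H2A sets of this kind, 207156_at read 7.57 with wild-type JMJD3, 10.32 with mutant JMJD3 and 8.08 in control, a 4.72-fold excess of mutant over control. H2A probe set 214290_s_at read 11.94 with wild-type JMJD3, 13.49 with mutant JMJD3 and 12.29 in control, 2.30-fold higher with the mutant than in control. The H4 sets did not move together. Probe set 207046_at was 2.03-fold higher in the mutant array than in control, 208580_x_at 1.18-fold higher, and 205967_at, near the top of the array's signal range, read 13.95 with wild-type JMJD3, 13.72 with mutant JMJD3 and 13.85 in control. That H4 set was the only one of the 16 below control in the mutant array. Each of these H4 sets lists 14 genes.

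**Figure D3:**
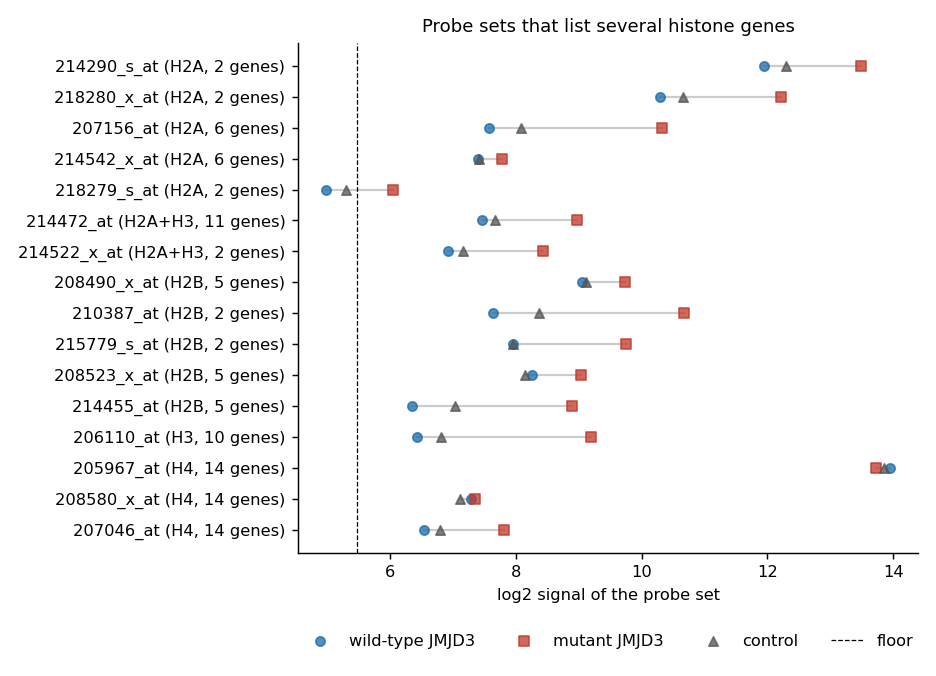
Log2 signal (x axis) of the 16 measured probe sets that list several histone genes (y axis, with the families and the number of genes listed), with circles for wild-type JMJD3, squares for mutant JMJD3, triangles for control and a dashed line at the floor of 5.48. The squares lie to the right except for H4 probe set 205967_at, where mutant JMJD3 read 13.72 and control 13.85.

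Lists of genes that act around the canonical histones had smaller median differences between mutant JMJD3 and control, from -0.11 to 0.04. Over all 12707 genes measured there, 45.9% were above control and 5241 genes were below it. By 2-fold 2.98% were higher and 0.535% lower. Many replacement histones are made outside S phase as well and can be exchanged into chromatin outside replication. Of 7 measured, 4 were above control with mutant JMJD3 and none by 2-fold, with a median of 0.04. Without shared probe sets their median for wild-type against mutant JMJD3 was -0.87, where it was 0.09 with them. It then rested on few genes, among them H2AJ, H2AZ2 and MACROH2A1, each read by a probe set other than its brightest. The canonical median was then -0.35, over 20 genes, so these medians are not comparable as classes. H2AJ, a replacement H2A known from senescent and secretory cells, was the member of that list nearest to the canonical genes. It read 10.88 with wild-type JMJD3, 11.29 with mutant JMJD3 and 10.66 in control, and all 4 of its probe sets were above control with mutant JMJD3, by 0.63 to 1.68. H2AX, the damage-signalling H2A, read 11.56, 11.19 and 11.14 in the same order. CENPA, the centromeric H3, read 9.52, 9.38 and 9.28, and MACROH2A1, a large repressive H2A variant, read 12.28, 11.89 and 12.19. Other MACROH2A1 probe sets did not move together. With wild-type JMJD3, 226840_at was 2.08-fold lower than control and 214500_at 1.41-fold higher. With mutant JMJD3, 214500_at differed from control by 0.62 and 229593_at by -0.59.

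Histone messages need dedicated factors: NPAT switches on the clusters in S phase, and SLBP binds the stem-loop. Of 26 measured genes for transcription, processing and decay of these messages, 11 were above control with mutant JMJD3 and 12 below, none by 2-fold, with a median of 0.00. For wild-type JMJD3 against control the median was -0.12. By 2-fold 1 gene (3.85%) was lower there and none higher, against 1.31% and 0.953% of all measured genes. Between the JMJD3 arrays 16 of 26 were lower with wild-type, where 40.5% of all measured genes were, with a median of -0.23. By 2-fold 2 genes (7.69%) were lower and 1 (3.85%) higher, near the shares of 6.20% and 2.61% over all genes. TUT7, a uridylyltransferase of RNA decay, was 2.19-fold lower in the wild-type than in the mutant array, the exonuclease gene XRN1 was 2.17-fold lower, and CSTF2, a cleavage factor subunit, was 2.04-fold higher. TUT7 read 8.04 with wild-type JMJD3, 9.17 with mutant JMJD3 and 9.14 in control, so that wild-type was 2.14-fold lower than control as well. NPAT read 8.58 with wild-type JMJD3, 9.56 with mutant JMJD3 and 9.40 in control, 1.97-fold lower in the wild-type than in the mutant array. Its other measured probe set, 211584_s_at, read 6.38, 6.74 and 6.89 in the same order. There wild-type was 1.28-fold lower than mutant, and mutant JMJD3 was below control. SLBP read 11.07, 11.24 and 11.04 in the same order.

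Histone chaperones carry newly made histones to DNA. For mutant JMJD3 against control, 8 of 23 were above control and 13 below, none by 2-fold, with a median of -0.11. Of all measured genes 45.9% were above control. The chaperone HIRA, which deposits a replacement H3, read 8.80 with wild-type JMJD3, 7.50 with mutant JMJD3 and 8.41 in control, and was 2.46-fold higher in the wild-type than in the mutant array. IPO4, a histone import factor, was 2.45-fold higher in the wild-type than in the mutant array, and NAP1L1, an H2A and H2B chaperone, was 1.96-fold lower. ATRX, a chromatin remodeller, was 1.88-fold lower with wild-type JMJD3 than in control.

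DNA replication genes mark the phase in which canonical histones are normally made. With mutant JMJD3 4 of 29 measured genes were above control and 21 below, from -0.43 to 0.41 around a median of -0.08, and none was 2-fold apart. Over all 12707 measured genes 45.9% were above control and 5241 genes were below it. With wild-type JMJD3 the median was 0.04, 17 of 29 being above control, as were 54.4% of all measured genes. POLA1, a subunit of the priming polymerase, read 9.32 with wild-type JMJD3, 10.06 with mutant JMJD3 and 10.25 in control. The proliferation marker MKI67 read 8.71, 9.12 and 9.51 in the same order. The replication checkpoint gene CLSPN read 6.31, 6.80 and 7.09, and the cyclin gene CCNE2 read 8.65, 9.33 and 9.41. These are the 4 genes of the list with the largest differences, and all were lowest with wild-type JMJD3. Others, named after their values were seen, went the other way: the licensing factor gene CDT1 read 10.56, 10.38 and 9.97 in the same order, and the cyclin gene CCNE1 read 9.13, 8.93 and 8.68. POLD3, a polymerase subunit, read 8.89, 9.42 and 9.16, highest with mutant JMJD3. The share of cells in S phase was not measured, and the part of these genes in the histone values was not tested.

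**Figure D4:**
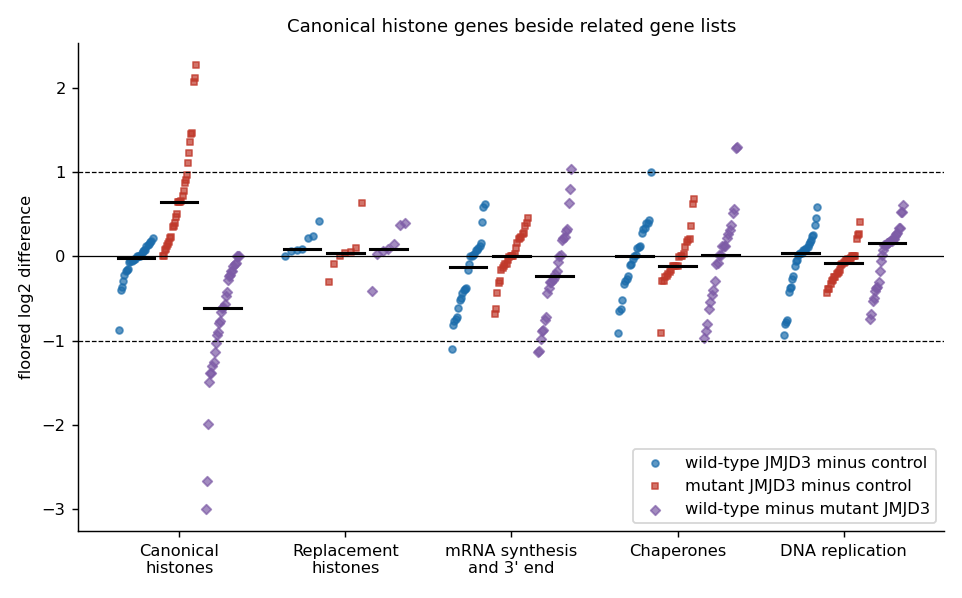
Floored log2 differences (y axis) of the canonical histone genes and 4 related gene lists (x axis), with circles for wild-type JMJD3 minus control, squares for mutant JMJD3 minus control, diamonds for wild-type minus mutant JMJD3, black bars at the medians and dashed lines at 2-fold. The medians for mutant JMJD3 minus control are 0.64 for the canonical histones and 0.04, 0.00, -0.11 and -0.08 for the other lists from left to right.

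The members also share features that their symbols do not fix. A RefSeq promoter, from 250 bases before to 50 after the gene start, was found for 43 of the 50. By these promoters 38 members lie on chromosome 6, 2 on chromosome 1, 2 on chromosome 3 and 1 on chromosome 12. On chromosome 6, 23 members were over the floor in control, and with mutant JMJD3 21 of them were above it and 6 by 2-fold, against 44.7% and 2.62% of all genes over the floor in control. The median of the 23 was 0.64. Both chromosome 1 members, H2AC25 and H2BC21, were 2-fold higher.

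The octamer, searched as ATTTGCAT and ATGCAAAT so as to cover both strands, was in 14 of 18 H2B and 11 of 16 H2A promoters in the table. It was in 1 of 11 H3 promoters and in none of the 9 H1 or 13 H4 promoters, against 492 of all 27305 promoters. Of the 8 members 2-fold higher in the mutant array than in control, 5 held it (H2AC6, H2AC8, H2AC17, H2BC4 and H2BC21), as did 7 of the 22 other measured members with a promoter. Of those 8, 4 are H2A and 2 are H2B genes, the families that mostly hold the octamer, and none is an H4 gene. These shares therefore depend on family, and shares within families were not compared. H2BC12 and H2BC21 both have the octamer starting 46 bases before the gene start, yet mutant JMJD3 exceeded control 1.56-fold in H2BC12 and 4.82-fold in H2BC21. A CCAAT box, searched as CCAAT and ATTGG, was in all 8 of the members at 2-fold, in 17 of the 22 others and in 35.7% of all promoters. It was in only 3 of the 13 H4 promoters, so these shares depend on family too. TATAAA or TTTATA was in 6 of the 8, in 13 of the 22 and in 3264 of all 27305 promoters. The H1 box, AAACACA or TGTGTTT, was in 7 of 9 H1 promoters and 5.76% of all, including H1-2, H1-3, H1-4 and H1-6, whose differences from control with mutant JMJD3 ran from 0.08 to 1.23. None of these motifs contains another, and a match is a description of letters, not of binding.

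**Figure D5:**
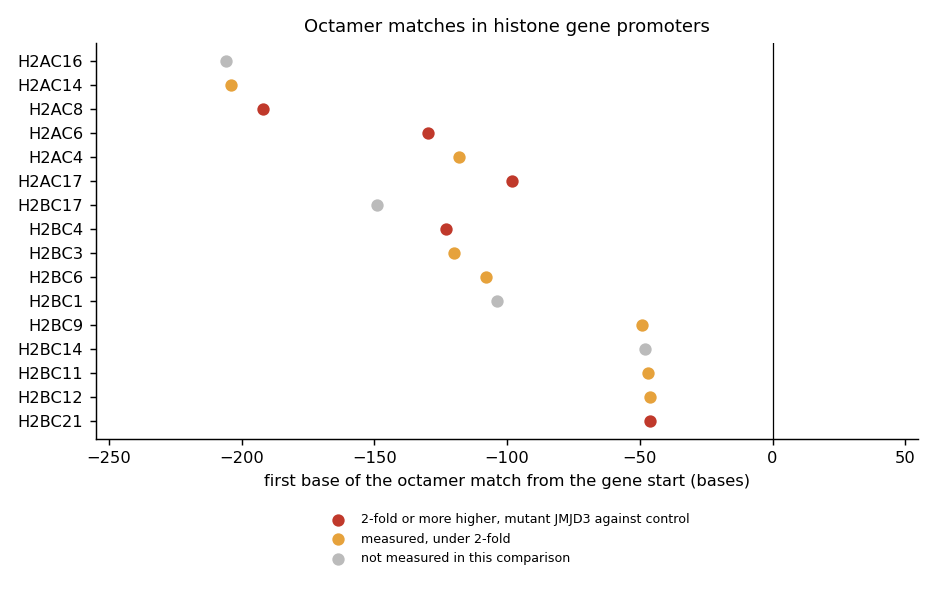
Position of the first base of each octamer match relative to the gene start (x axis, bases) in the 16 member promoters that hold one (y axis), in red for genes 2-fold or more higher with mutant JMJD3 against control, orange for measured genes under 2-fold and grey for genes not measured. The 5 genes at 2-fold or more have matches from 192 to 46 bases before the start, among those under 2-fold.

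H2A and H2B genes often stand back to back, and their promoter windows then overlap on opposite strands. There were 12 such pairs in the table, and both genes are members in 4. H2BC4 and H2AC6 share 255 bases, which include the H2BC4 octamer printed above, and with mutant JMJD3 they were 4.35-fold and 2.55-fold higher than control. The windows of H2BC15 and H2AC15 overlap by 293 bases, but H2BC15 read 6.25 in every array while H2AC15 was 1.95-fold higher with mutant JMJD3. In the other 2 pairs the H2B gene, H2BC14 or H2BC17, stayed under the floor in all arrays, while its H2A partner, H2AC14 or H2AC17, was 1.64-fold or 2.73-fold higher in the mutant array than in control. H2BC17 read 4.35 with wild-type JMJD3, 5.26 with mutant JMJD3 and 4.21 in control.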

How the data were processed

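Total RNA of 3 PANC-1 lines was read on 1 Affymetrix array each, and groups came from the sample titles. The deposited values are log2 signals per probe set, from 2.42 to 14.94, and the submitters' processing notes name MAS5 with no settings. The normalization between arrays and a genome build for the array values are not given in the sources used here. Of 54613 probe sets, 41091 had 1 gene symbol in the platform annotation, 1801 had several and 11721 are unnamed here. Gene identifiers were checked against RefSeq (GRCh38.p14), and 0 symbols changed. The probe set of highest mean stood for its gene. Promoters came from the RefSeq table of that build, the first entry per symbol.

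Having 1 array per line, the design allows no p-value. Counts use 2-fold differences after flooring at the pooled median. The members and lists were chosen with earlier results of these data known. Named were all members over the floor, with full values for those at 2-fold and the 6 of highest mean, and up to 4 genes per related list by largest difference. The calculation was run on simulated arrays with changes over 2-fold placed only in genes of high signal. That does not show how it does on dim or shared probe sets. The alternatives were array medians, quantile normalization, a floor at the 40th or 60th percentile, an offset, the median over probe sets, no shared probe sets, and a 1.5-fold threshold. Counts over members over the floor in control or with wild-type JMJD3 were added after seeing the data. Values were computed with pandas 2.3.3 and numpy 2.4.6 in Python 3.11.15 and drawn with matplotlib 3.10.9.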

Additional observations from a re-analysis of the deposited data

How the results depend on the processing

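No paired analysis was possible because each line has 1 array. Counts and medians of the histone genes and related lists gave 264 values under the alternatives. Of these, 237 stayed within 1.5 times the value reported or, for medians, within 0.1 of it. Within that range the members lower with wild-type than with mutant JMJD3 numbered 7 with the floor at the 60th percentile or the offset, and the median for mutant JMJD3 against control was 0.48 with the floor at the 40th. For single genes 561 of 573 values stayed on the same side of 2-fold, 11 fell under it and 1 rose over it. No 2-fold difference turned sign, but the small one of H3C6 between the JMJD3 arrays, -0.17, was 0.06 with the median over probe sets. H1-2, H2AC8, H2AC17 and H2BC4 kept their 2-fold differences, for mutant JMJD3 against control and for wild-type against mutant JMJD3, under all 7 alternatives at that threshold. H2AC6 and H2BC21 kept theirs under 6 and have no value without shared probe sets. H4C8 lost its call under 4 of 7 alternatives, H2AC15 under 2 of 7, H3C2 under 2 of 6 in each comparison and H2AC25 under 1 of 7, and H2BC5 gained one against control.

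Without shared probe sets, which leaves fewer genes, 5 members were 2-fold higher in the mutant array than in control and 6 lower in the wild-type than in the mutant array, with medians of 0.38 and -0.35. The H2B medians were then 0.12 and -0.12, both the value of H2BC3, which was over the floor with mutant JMJD3 alone. The H3 medians were 0.09 and -0.17, over H3C3 and H3C6 only. For wild-type JMJD3 against control the H3 median, -0.17, was the value of H3C6 alone. Replacement histones turned to -0.33 for wild-type JMJD3 against control and -0.87 for wild-type against mutant JMJD3, and read 0.16 for mutant JMJD3 against control. At 1.5-fold, 17 members were higher in the mutant array than in control, 17 lower in the wild-type than in the mutant array and 1 lower with wild-type JMJD3 than in control. With the floor at the 40th percentile the H1 medians were 0.21 for mutant JMJD3 against control and -0.15 for wild-type against mutant JMJD3. At the 60th percentile they were 0.78 and -0.61, and those of H3 0.72 and -0.70. With the offset the H1 medians were 0.24 and -0.15 and those of H4 0.21 and -0.24. With the median over probe sets, the list for histone message synthesis and processing read -0.02 for wild-type JMJD3 against control and -0.10 for wild-type against mutant JMJD3, where it was -0.12 and -0.23 as reported. Apart from the changes in construction named here, the cause was not tested. Signal near the floor limits most H3 and H4 genes as read by probe sets with 1 gene symbol.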
